A study of Rattus norvegicus with 15 samples.

Results

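The dual-specificity MAP kinase phosphatases measured here are the 6 genes whose symbol in the platform annotation is Dusp followed by a number: Dusp1, Dusp4, Dusp5, Dusp6, Dusp7 and Dusp12. Each was represented by 1 probe. They were 6 of the 4153 genes with a probe of a single symbol, on spotted-oligonucleotide arrays of 5088 probes, and 6 of the 26 rat genes that RefSeq names in this way. The RNA came from dissociated dorsal root ganglion (DRG) cells of juvenile rats, a mixed culture of sensory neurons and the non-neuronal cells around them. The cultures were kept in Sato medium on poly-L-lysine or myelin, with the substrate not given per array. Treated cultures received 1.5 mM dibutyryl cyclic AMP (dbcAMP), a cell-permeable analogue of cAMP, for 1, 3, 6, 12 or 18 h, and were set against untreated control cultures on 2-colour arrays, 3 per time and 15 in all. The labels group the first arrays as 1 h, while their protocol text lists 0 h in its place. Strain, age and sex were not given in the sources used here.

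MAP kinases such as ERK, JNK and p38 are switched on by phosphorylation of a threonine and a tyrosine in their activation loop, and the phosphatases of the Dusp family remove both phosphates and so switch them off. The members differ in where they act and which kinases they prefer, and several are themselves transcribed in response to MAP kinase activity, which makes them negative feedback regulators. Raised cAMP acts through protein kinase A on the transcription factor CREB, which binds cAMP response elements (CRE) in promoters, and Dusp1 is a known CREB target. In sensory neurons, ERK carries signals from neurotrophins.

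The promoters of the 3 members below are printed to set the CRE letters of Dusp1 beside those of Dusp5 and Dusp6. The sequences are RefSeq's, on the GRCr8 assembly, all on the plus strand, 5′ to 3′, and end at the base before the annotated gene start. They cover chr10:17184603-17184852 for Dusp1, chr1:262543524-262543773 for Dusp5 and chr7:35979354-35979501 for Dusp6, where the printed stretch is the first 148 bases of the window. Capitals mark the CRE or its TGACG core on either strand and, in Dusp5, 2 adjoining CArG boxes, the element that serum response factor binds.
Dusp1: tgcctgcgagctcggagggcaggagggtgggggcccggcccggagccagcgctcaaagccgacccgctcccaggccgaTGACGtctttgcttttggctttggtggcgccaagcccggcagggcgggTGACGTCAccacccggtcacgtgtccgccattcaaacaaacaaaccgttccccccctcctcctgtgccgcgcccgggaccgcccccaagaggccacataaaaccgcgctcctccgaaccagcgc
Dusp5: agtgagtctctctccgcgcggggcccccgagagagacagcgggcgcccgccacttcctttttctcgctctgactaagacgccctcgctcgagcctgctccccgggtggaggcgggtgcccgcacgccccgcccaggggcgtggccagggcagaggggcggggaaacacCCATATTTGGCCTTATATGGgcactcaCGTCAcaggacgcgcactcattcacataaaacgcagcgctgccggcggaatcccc
Dusp6: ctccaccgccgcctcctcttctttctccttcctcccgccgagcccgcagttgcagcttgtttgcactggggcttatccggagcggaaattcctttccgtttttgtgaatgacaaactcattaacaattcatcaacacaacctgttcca

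RefSeq windows of 250 bases before to 50 after the start were given for 5 of the 6 genes, all but Dusp4, and each of the 5 was searched over its whole window. Less of the Dusp6 window is printed, since an annotated base of the gene comes before the start that its window is drawn from. The full palindrome TGACGTCA was found in Dusp1 alone among these 5, at positions -124 to -117 from the start, and 1.83% of 33469 rat promoter windows hold it. Dusp1 also held a TGACG core at -172 to -168, beside the 2 that overlap the palindrome. Dusp5 held 1 core on the minus strand at -55 to -51. A core lies in 21.2% of all windows. The CArG boxes of Dusp5 lay at -82 to -73 and -72 to -63, and 1.64% of windows hold such a box. None of these motifs, nor the AP-1 site TGANTCA that 7.33% of windows hold, was found in Dusp6, Dusp7 or Dusp12, and the AP-1 site was not in Dusp1 or Dusp5 either. These are matches of letters on both strands, not measured binding.

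**Figure D1:**
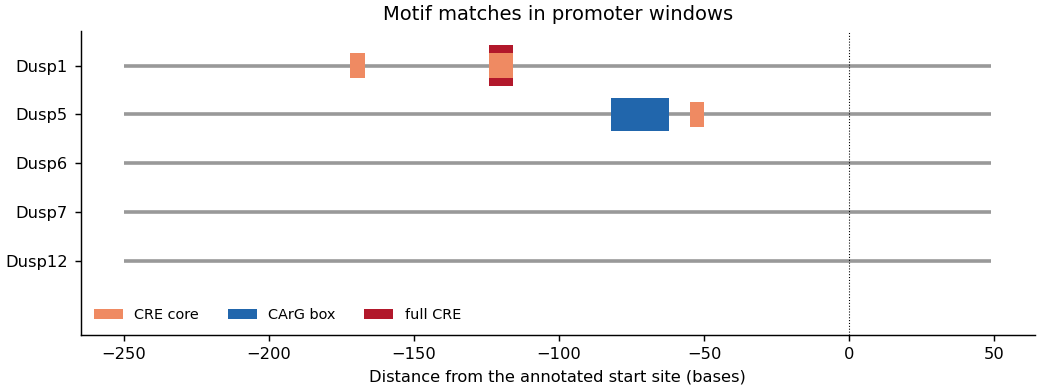
Motif matches in the promoter windows of the 5 Dusp genes with a RefSeq entry, drawn against the distance in bases from the annotated start site. Blocks mark the full CRE, its TGACG core and CArG boxes on either strand. Dusp1 holds the full CRE at -124 to -117, the single blue block of Dusp5 is 2 adjoining CArG boxes, and Dusp6, Dusp7 and Dusp12 hold none of the 3.

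All values below are log2 of the deposited ratio, so 0 means equal signal in treated and control RNA and 1 means a doubling. A ratio gives a difference and not a level. The deposited table does not name the numerator. It was read as treated over control because the labels put treated RNA in Cy5 and control RNA in Cy3 on every array, so the direction is likely and not stated. Read this way, Slpi was at 2.49 at 18 h, above 0 on 3 of 3 arrays, and Il6 at 1.86, above 0 on 2 of 3. The study's text describes both genes as raised by dbcAMP, which points to the same numerator as the dyes. With no dye swap, a constant dye bias of a probe and a constant effect of treatment cannot be told apart, and only differences between times are free of such a bias. The median ratio per array lay between 0.997 and 1.02. The spread of log2 ratios over probes had an SD of 0.357 to 0.434 on 9 arrays. It was wider, at 0.627 to 0.703, on 6 h array 3, on 12 h arrays 1 and 2 and on all 3 arrays of 18 h. Whether arrays of one time hold RNA of different cultures is not given in the sources used here, so the p-values measure a spread between arrays that may be technical. In such bulk RNA, fewer cells of a type and less RNA per cell cannot be told apart. Ratios also cannot show whether the markers of the labelled cells were present.

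Of the 6 Dusp genes, Dusp1 and Dusp6 had a higher signal in RNA of dbcAMP-treated cells and the other 4 passed the test at no time. Dusp1 was 1.48- to 1.73-fold higher at all 5 times. Dusp6 was 1.78-fold higher at 6 h, 1.51-fold at 12 h and 2.01-fold at 18 h. Both had a ratio above 1 on all 15 arrays. Neither passed a test of change with time. A constant dye bias of either probe therefore cannot be told apart from an effect of dbcAMP. Calls were made with limma at an adjusted p under 0.05 over all probes tested.

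Dusp1 encodes a nuclear phosphatase of p38, JNK and ERK and is an immediate early gene. At 1 h its log2 ratio was 0.51, 0.60 and 0.60 on the 3 arrays, with a mean of 0.57 (SD 0.05, n = 3, 95% interval 0.31 to 0.83, limma adjusted p = 0.0234). At 3 h it was 1.02, 0.62 and 0.64, with a mean of 0.76 (SD 0.22, adjusted p = 0.00255). The 1 h arrays lay close together, just below the lowest 3 h array. At 6 h the ratio was 0.63, 0.61 and 0.98, with a mean of 0.74 (SD 0.21, adjusted p = 0.00315). At 12 h it was 1.05, 0.67 and 0.65, with a mean of 0.79 (SD 0.23, adjusted p = 0.00145). A single array stood above the others at each of these times, array 1 at 3 and 12 h and array 3 at 6 h. At 18 h the ratio was 0.46, 0.68 and 0.71, with a mean of 0.61 (SD 0.14, adjusted p = 0.00258), and its range overlapped that of every earlier time. The 1 h call was lost without any 1 of its arrays (limma adjusted p 0.125 to 0.180) and with arrays centred on plate medians (adjusted p = 0.0571). The 18 h call was lost with arrays scaled to a common spread, where the mean was 0.41 (adjusted p = 0.0534), and with each time fitted alone the calls at 6, 12 and 18 h were lost (limma adjusted p = 0.195, 0.155 and 0.0889).

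Dusp6 encodes a cytoplasmic phosphatase that prefers ERK and is transcribed downstream of ERK. At 1 h its log2 ratio was 0.59, 0.28 and 0.80, with a mean of 0.56 (SD 0.26, n = 3, limma adjusted p = 0.0915). At 3 h it was 0.39, 0.79 and 0.61, with a mean of 0.59 (SD 0.20, adjusted p = 0.0578). All of these were above 0, though neither mean passed the test. At 6 h the ratio was 0.65, 0.97 and 0.87, with a mean of 0.83 (SD 0.16, adjusted p = 0.00699). At 12 h it was 0.44, 0.34 and 1.01, with a mean of 0.60 (SD 0.36, adjusted p = 0.0290). The 12 h arrays were the most scattered of the 5 times, with array 3 far above the other two. At 18 h the ratio was 1.32, 0.85 and 0.85, with a mean of 1.01 (SD 0.27, 95% interval 0.68 to 1.33, adjusted p = 0.000451). The 6 h call was lost without array 2 (adjusted p = 0.0540) or array 3 (0.0518), and the 12 h call without array 1 (0.0755) or array 3 (0.159) and with plate centring (0.145), array weights (0.0605) or a common spread (0.0915). The 18 h mean fell to 0.66 with a common spread (adjusted p = 0.0501), and with each time fitted alone the calls at 6, 12 and 18 h were lost (adjusted p = 0.147, 0.317 and 0.0536).

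**Figure D2:**
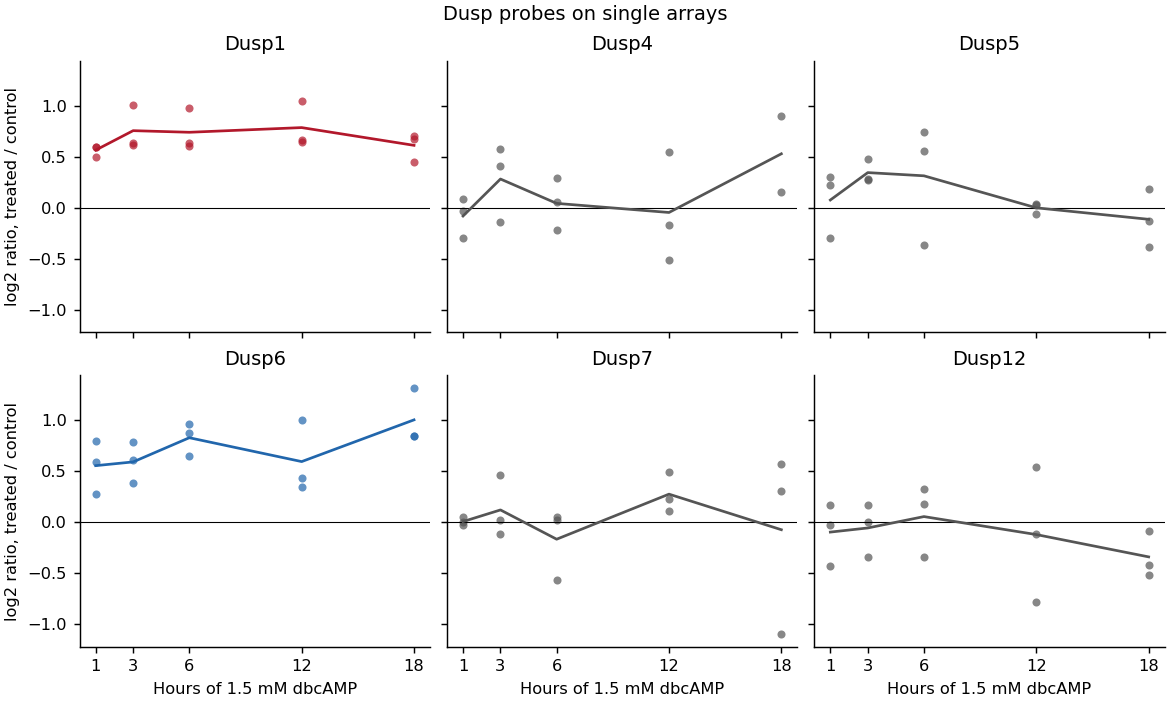
Log2 ratio (treated over control) of each Dusp gene against hours of dbcAMP. Points are single arrays and the bar or line is the mean of a time. Dusp1 and Dusp6 lie above 0 on all 15 arrays, while Dusp4, Dusp5, Dusp7 and Dusp12 scatter on both sides of 0.

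The calls of Dusp genes were read beside those of all probes. At 1 h, 1 of 6 Dusp probes was called higher, against 0.732% of all probes tested. At 3 h the count was 1 of 6 against 0.931%, at 6 h 2 of 6 against 1.84% and at 12 h 2 of 6 against 3.81%. At 18 h it was 2 of 6 against 10.6%. The share of all probes called grew with time, so the Dusp count stood out least from it at 18 h. By limma, 0 Dusp probes were called lower at any time, while 1.6%, 1.94%, 2.35%, 4.77% and 11.3% of all probes were at 1, 3, 6, 12 and 18 h, at the same adjusted p. At an unadjusted p under 0.05, 0 Dusp probes were lower as well. Dusp1 was among the 11 of 4964 probes (0.222%) called higher at all 5 times. Both genes were among the 44 of 4974 (0.885%) called higher at 6, 12 and 18 h, and among the 113 of 4815 (2.35%) above 0 on all 15 arrays. Below 0 on all 15 arrays were 3.66% of probes and 0 Dusp probes. The median over the 6 Dusp probes was 0.04, 0.32, 0.19, 0.14 and 0.23 at 1, 3, 6, 12 and 18 h, beside 0.02, 0.02, 0.02, 0.00 and 0.01 for all probes.

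Dusp4 and Dusp5 encode nuclear phosphatases of the family, Dusp4 acting on ERK and JNK and Dusp5 on ERK. Dusp4 was measured on 14 arrays, since 18 h array 3 had no ratio, and was above 0 on 8 of them. Its highest mean was at 18 h, where the 2 arrays read 0.16 and 0.90 (mean 0.53, 95% interval -0.02 to 1.09, limma adjusted p = 0.160). Dusp4 was thus unevenly measured at the time with its highest value, and its interval still spans both 0 and the 18 h value of Dusp1. Dusp5 was highest at 3 h, with 0.28, 0.28 and 0.48 (mean 0.35, 95% interval -0.05 to 0.74, adjusted p = 0.597). At 6 h its arrays read 0.75, 0.56 and -0.36, so that array 3, one of those with a wide spread, opposed the other two. At 18 h its mean was -0.11 (adjusted p = 0.708).

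Dusp7, a cytoplasmic ERK phosphatase related to Dusp6, was above 0 on 11 of 15 arrays. At 18 h its arrays read 0.30, 0.58 and -1.10, the widest scatter of any Dusp gene at any time, with a mean of -0.07 (SD 0.90, limma adjusted p = 0.864). Without array 3 that mean was 0.44, so a single array set its sign. Dusp12, an atypical member that lacks the MAP kinase binding region of the others, was above 0 on 5 of 15 arrays. At 18 h it read -0.42, -0.08 and -0.52, below 0 on 3 of 3 arrays (mean -0.34, 95% interval -0.80 to 0.12, adjusted p = 0.280). It was the sole member with a mean below 0 over the 5 times.

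Averaged over the 5 times, the mean log2 ratio was 0.72 for Dusp6 (95% interval 0.57 to 0.86, limma adjusted p = 3.75e-06) and 0.69 for Dusp1 (0.58 to 0.81, adjusted p = 5.67e-07). These stood at places 44 and 48 from the top of 4964 probes, of which 13.7% were called higher on this measure and 13.4% lower. The means of the other 4 were 0.15 for Dusp4 (-0.06 to 0.36), 0.13 for Dusp5 (-0.05 to 0.30), 0.03 for Dusp7 (-0.20 to 0.27) and -0.11 for Dusp12 (-0.32 to 0.09). The intervals of these 4 exclude a mean as high as that of Dusp1 or Dusp6. In this order, neighbours were compared array by array with a two-sided exact sign-flip permutation test, adjusted over 5 pairs. Dusp1 exceeded Dusp4 by 0.57 (SD 0.44), on 13 of 14 arrays (permutation p = 0.000366, adjusted 0.00183). Dusp6 and Dusp1 differed by 0.02 (SD 0.39), with Dusp6 higher on 9 of 15 arrays (permutation p = 0.838, adjusted 0.99). The other 3 neighbouring pairs differed by 0.14 or less (adjusted permutation p 0.772 to 0.99). The order was taken from the same arrays, so the gap below Dusp1 describes where the order breaks and its p-value is not an independent test. A constant dye bias of a probe would also enter these differences between probes.

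**Figure D3:**
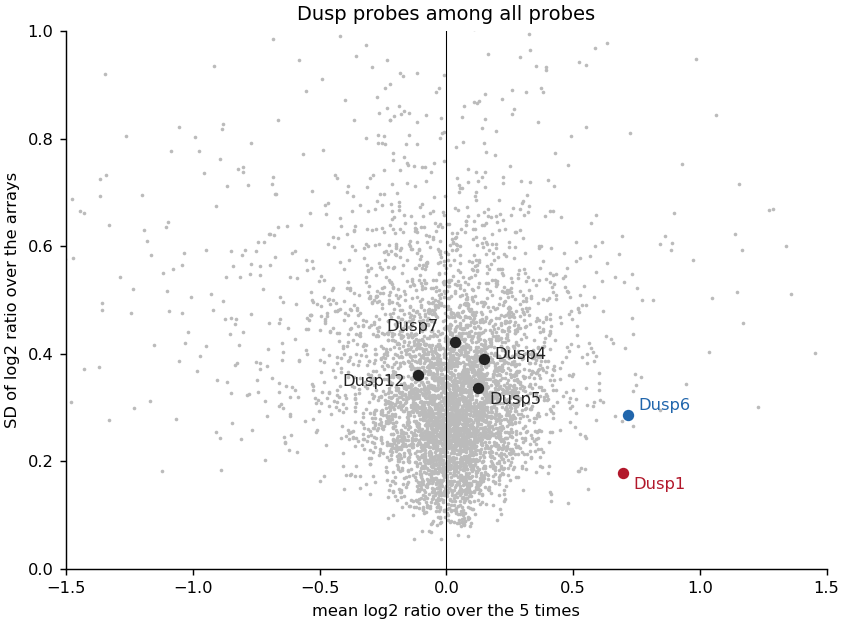
Mean log2 ratio over the 5 times (x axis) against the SD over arrays (y axis, log2 units) for 4964 probes, with the 6 Dusp probes named. Of these, 83 probes lie outside the axes. Dusp1 and Dusp6 sit far to the right, at 0.69 and 0.72, and Dusp1 has the smaller SD of the pair.

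No Dusp gene passed a test of change with time. The difference between 18 h and 1 h was 0.05 for Dusp1 (SE 0.17, 95% interval -0.32 to 0.41, limma adjusted p = 0.928) and 0.45 for Dusp6 (SE 0.22, -0.01 to 0.91, adjusted p = 0.314). The unadjusted p of Dusp6 was 0.0565. All 3 of its 18 h arrays (0.85 to 1.32) lay above all 3 of its 1 h arrays (0.28 to 0.80), a separation shown by 11.4% of all probes. With arrays scaled to a common spread the Dusp6 difference was -0.05, and that of Dusp1 was -0.33, so their course from 1 to 18 h turns with the scaling. Between the same times, 1.18% of all probes were called higher and 1.56% lower. The test for any difference among the 5 times called 1.87% of probes and no Dusp gene (adjusted p 0.599 to 0.906). At an unadjusted p under 0.05, 0 Dusp genes passed either of these limma tests.

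**Figure D4:**
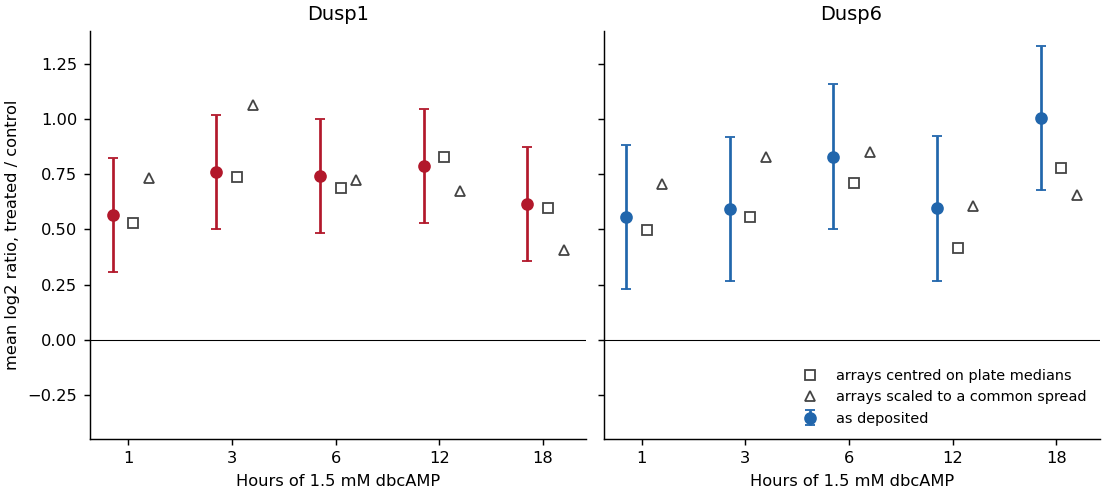
Mean log2 ratio of Dusp1 (left) and Dusp6 (right) at each time as deposited (circles, with 95% intervals) and under 2 other scalings (open symbols, drawn without intervals). Every mean lies above 0. The rise of Dusp6 to 1.01 at 18 h becomes 0.66 with arrays scaled to a common spread.

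Plates were read from the leading number of the probe identifiers, which is an inference from their format. Read this way, Dusp4, Dusp6 and Dusp7 were on plate 11 and Dusp1 and Dusp5 on plate 30. The median log2 ratio of plate 11 rose from 0.06 at 1 h to 0.23 at 18 h, while that of plate 30 was 0.02 at 18 h. Plate 11 holds 21 probes of Dusp or other cysteine-based phosphatases among its 96, so its median is not independent of the family. Centred on its plate, Dusp6 at 18 h was 0.78 (limma adjusted p = 0.00503) and Dusp1 0.60.

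The profile of Dusp1 over the 15 arrays was not that of Dusp6 (Pearson r = -0.38, over arrays that all have the same dye order). Correlations with the other 3 members measured on every array were -0.09 for Dusp5, 0.26 for Dusp7 and -0.25 for Dusp12. Of 4271 probes with a single symbol other than Dusp1 and a ratio on all 15 arrays, the most alike were Rabac1 (r = 0.84), Ebp (0.79), Ppy (0.77), Dbil5 (0.77) and Nr3c2 (0.75). Their mean log2 ratios lay between -0.04 and 0.37, below that of Dusp1, so the likeness is in the ups and downs between arrays and not in height. These are descriptions over 15 arrays.

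Around the phosphatases, the other parts of the MAP kinase pathway were called at 18 h at counts near the share of all probes. Of 84 genes in 5 pathway lists, 37 were measured, and at 18 h 2 of 36 were higher and 3 lower, beside 10.6% and 11.3% of all probes. With arrays scaled to a common spread, 1 was higher and 1 lower. None of the MAP kinases, the substrates of the Dusp proteins, was called by limma at any time (0 of 9 at 18 h, median -0.09). At 18 h, 0 were higher and 1 lower at an unadjusted p under 0.05. Among other inhibitors of the pathway, 2 of 9 were higher at 18 h. Ptpn5, a brain-enriched tyrosine phosphatase of ERK and p38, read 1.62, 0.33 and 1.22 (mean 1.06, limma adjusted p = 0.00184). Ptpn7, a haematopoietic phosphatase of the same kinases, had a mean of 0.45 (adjusted p = 0.0290) and lost its call without array 1 (0.0783) or array 2 (0.191) and with plate centring (0.260). Like Dusp6, both are on plate 11. Of kinases above the MAP kinases, 2 of 8 were lower: Map2k2, which activates ERK, at -0.87 (adjusted p = 0.000284) and Map2k5 at -1.24 (0.00709). Both are on plate 36. Plate centring ended the call of Map2k2 (-0.48, limma adjusted p = 0.0607) and moved Map2k5 to -0.85 (0.0325). Map2k5 lost its call without array 1 (0.0816) or with a common spread (0.060). At 1, 3, 6 and 12 h, 1, 2, 2 and 3 of these 8 kinases were lower and 0 higher. Except for Map3k1 at 12 h, on plate 40, these were Map2k1, Map2k2 or Map2k5, which share plate 36. An effect of that plate on these counts was not tested. Of all probes, 1.6%, 1.94%, 2.35% and 4.77% were lower at these times. Map2k1, also on plate 36, was at -1.57 at 3 h and -1.69 at 6 h (limma adjusted p = 0.00872 and 0.00509), but at -0.09 at 18 h. Map2k5 was at -2.10 at 3 h and -1.80 at 6 h (0.00089 and 0.00271). These values at 3 and 6 h are as deposited, not centred on the plate. At 18 h, plate centring moved Map2k1 from -0.09 to 0.29. Of 9 genes of Ras input and scaffolds, Nf1, which switches Ras off, was lower at -0.50 (adjusted p = 0.0140, but 0.0988 without array 3 and 0.116 with a common spread).

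Genes known to be induced through ERK, as Dusp6 is, were higher at 18 h for 7 of 11 (median 0.55), against 0, 2, 3 and 2 at 1, 3, 6 and 12 h, and 0 were lower, also at an unadjusted p under 0.05. Of all probes, 10.6% were higher at 18 h and 0.732%, 0.931%, 1.84% and 3.81% at the earlier times. With arrays scaled to a common spread, 3 of the 7 kept their call at 18 h, namely Phlda1, Egr4 and Myc. Phlda1 had the highest value at 1.70 (limma adjusted p = 1.41e-06) and was the only gene of these 11 whose 18 h minus 1 h difference passed the test (1.41, adjusted p = 0.000657). Egr4 was at 0.74, Fosl1 at 0.71, Myc at 0.58, Arc at 0.55 and Mcl1 at 0.50. Of these, Egr4 lost its call without array 2 (adjusted p = 0.0614). Fosl1 lost it without array 1 (0.0703) and with plate centring (0.0668). With plate centring 6 of the 7 kept their call, and 8 of the 11 were called higher. Arc lost it without array 1 (0.0961) or array 3 (0.176), and Mcl1 without array 1 (0.192) or array 2 (0.182).

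Among 16 measured CREB targets other than Dusp1, 1, 3, 6, 4 and 2 were higher at 1, 3, 6, 12 and 18 h, and 1, 1, 1, 0 and 1 were lower. Of all probes, 0.732%, 0.931%, 1.84%, 3.81% and 10.6% were higher at these times, so the 18 h count was near the background. With plate centring, 5 were higher at 18 h. At 18 h Pde4b, a cAMP phosphodiesterase, was at 1.20 (limma adjusted p = 0.000568) and Vgf, a neuropeptide precursor, at 1.03 on 1 of its probes (0.000206), while the other Vgf probe read 0.28 and was not called. Ppargc1a, a coactivator of mitochondrial genes, was at -1.05 (adjusted p = 0.0180, but 0.125 without array 1 and 0.0529 without array 3). It gave all the lower calls of this list and is on plate 36, like Map2k1, Map2k2 and Map2k5. Centred on its plate it was at -0.66 (limma adjusted p = 0.0346). Rgs2, a regulator of G protein signalling chosen here after its values were seen, was at 0.73, 0.81, 0.83 and 0.40 at 1, 3, 6 and 12 h (adjusted p 0.000305 to 0.0238). It was at 0.12 at 18 h, and its 18 h minus 1 h difference was -0.61 (adjusted p = 0.0324), whereas that of Dusp1 was 0.05. The difference between the 2 genes in this respect was not tested.

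**Figure D5:**
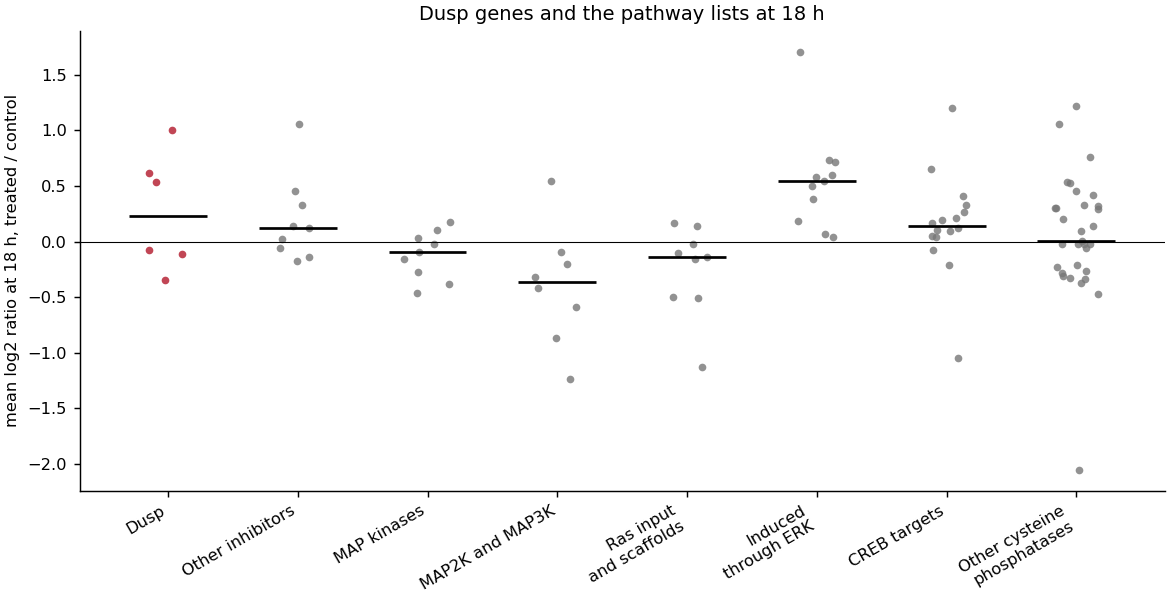
Mean log2 ratio at 18 h (treated over control) of the Dusp genes and of the measured genes of each pathway list, 1 point per gene, with a bar at the median of each list. The Dusp genes spread from -0.34 to 1.01 around a median of 0.23, and the ERK-induced genes have the highest median, 0.55.

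Marker lists of the cell types in such cultures were measured beside these results. At 1, 3 and 6 h limma called 0 markers in any of 5 lists. Of all probes, 0.732%, 0.931% and 1.84% were higher and 1.6%, 1.94% and 2.35% lower. For lists of this size, 0 is near those shares. In either direction, 0 to 2 per list passed an unadjusted p under 0.05. At 12 h, 1 of 11 sensory neuron markers was higher and 1 lower. Of Schwann cell and satellite glia markers 2 of 10 were lower, and of endothelial markers 1 of 5 was higher. All probes were at 3.81% higher and 4.77% lower then. At 18 h, 1 of 12 sensory neuron markers was higher and 1 lower, of Schwann cell and satellite glia markers 1 of 10 higher and 3 lower, of fibroblast markers 1 of 8 higher and 2 lower, of macrophage markers 1 of 7 higher and 1 lower, and of endothelial markers 0 of 5 by limma, where 2 were higher and 0 lower at an unadjusted p under 0.05. Of all probes, 10.6% were higher and 11.3% lower. The part of these markers in the 18 h values of Dusp1 and Dusp6 was not tested.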

How the data were processed

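The arrays were spotted 2-colour oligonucleotide arrays, with treated RNA in Cy5 and control RNA in Cy3. The deposited values are linear ratios per probe, 1 column per array. How the authors normalized them is not given in the sources used here. They were used as log2 ratios without further centring. Probes were named from the platform annotation, in which 4423 probes have 1 symbol, 2 have several and 663 have none. The plate of a probe was inferred from the leading number of its identifier. Testing a probe at a time needed ratios on 2 or more of the 3 arrays. The mean of each time was tested against 0 in 1 fit of all 15 arrays with limma 3.58.1 in R 4.3.3 (lmFit and eBayes), with Benjamini-Hochberg adjustment over all probes tested and a threshold of 0.05. The mean over the 5 times was added after the values were seen. The number of arrays limits the precision, and the scripts were tested on simulated data. The alternatives were array weights, a robust prior, stricter and looser filters on missing ratios, median, plate and spread scaling, each time alone, the methods' t-test, a threshold of 0.01, a replicate block and leaving out each replicate. Spread scaling used limma's normalizeMedianAbsValues in place of the planned normalizeBetweenArrays, which gave no values on log ratios. From each list, all genes called at 18 h were named if 6 or fewer, otherwise the 3 highest and 3 lowest of them. The Dusp members and the gene lists were chosen with earlier results of these data known. Promoters are RefSeq's, on GRCr8.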

Additional observations from a re-analysis of the deposited data

How the results depend on the processing

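The mean of the 5 times kept its direction and its call for Dusp1 (0.67 to 0.72) and Dusp6 (0.59 to 0.75) in 11 of 11 alternatives. The counts of Dusp genes called were less stable. With array weights they were 2 at 1 h, 2 at 3 h and 1 at 12 h, and with plate medians 0 at 1 h and 1 at 12 h. With a common spread they were 2, 2, 1 and 0 at 1, 3, 12 and 18 h, and with each time fitted alone 2, 0, 0 and 0 at 3, 6, 12 and 18 h. The methods' t-test gave 0 at each of the 5 times after adjustment, and, without adjustment, 1, 3, 2, 1 and 2 at 1, 3, 6, 12 and 18 h. A threshold of 0.01 gave 0 at 1 h and 1 at 12 h. Leaving out 1 replicate gave 0 at 1 h in each case, 1 to 2 at 6 h and 1 to 2 at 12 h. The count of pathway genes called at 18 h, 5 as reported, was 3 with array weights, 3 with plate medians, 1 with the time alone, 2 with a common spread and 0 with the methods' t-test.

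Signs turned as follows. With a common spread the 18 h minus 1 h difference was -0.33 for Dusp1 and -0.052 for Dusp6. With plate medians Dusp4 at 6 h was -0.075, Dusp7 at 1 h -0.052 and the mean of Dusp7 -0.091. With array medians Dusp5 at 12 h was -0.0002 and Dusp7 at 1 h -0.0068. Leaving out 1 replicate gave, for Dusp4, -0.16 to 0.030 at 1 h, -0.081 to 0.18 at 6 h and -0.34 to 0.19 at 12 h. For Dusp5 it gave -0.035 to 0.26 at 1 h, -0.016 to 0.032 at 12 h and -0.26 to 0.026 at 18 h. For Dusp7 it gave -0.014 to 0.025 at 1 h, -0.052 to 0.24 at 3 h, -0.27 to 0.036 at 6 h, -0.40 to 0.44 at 18 h, -0.41 to 0.45 for 18 h minus 1 h and -0.079 to 0.14 for the mean. For Dusp12 it gave -0.23 to 0.072 at 1 h, -0.17 to 0.085 at 3 h, -0.079 to 0.25 at 6 h and -0.45 to 0.21 at 12 h. The causes were not tested. Over 347 alternative values, Dusp4, Dusp5, Dusp7 and Dusp12 were never called after adjustment (lowest adjusted p = 0.0544), though Dusp5 at 3 h was among the 3 of the methods' t-test without adjustment. Dusp4 at 18 h could not be tested without array 1 or 2.

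Replicate numbers showed no pairing in the values: same-numbered deviations correlated at -0.059 to 0.069, and 5 of 15 arrays correlated best with their own number. This does not show whether same-numbered arrays shared cultures. With the replicate block the Dusp counts were 1, 1, 2, 2 and 2 at 1, 3, 6, 12 and 18 h, as without it.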

Other observations

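The tyrosine phosphatases and other cysteine-based relatives of the Dusp family moved in both directions at 18 h. Of 31 measured, 7 were higher and 2 lower (median 0.01), beside 10.6% and 11.3% of all probes. Of the 7, 6 are on plate 11, whose median rose with time. With plate centring 3 of the 7 kept their call, Ptprz1, Ptpn5 and Ptp4a2, and with a common spread 2, Ptprz1 and Ptpn5. Ptprz1, a receptor phosphatase of glia, was at 1.22, and Ptp4a2, a prenylated phosphatase, at 0.76, with limma adjusted p of 0.00321 and 0.00582 (0.0663 for Ptp4a2 without array 1). Ptpn5 is described above, and Ptpn23 was at 0.42 (0.0353, and 0.296 without array 3). Ptpru, a receptor phosphatase of cell contacts, was at -2.05 (adjusted p = 1.30e-05), with arrays at -1.98, -2.05 and -2.12. Of the 3 probes of Ptpre, 1 was called lower at -0.53 while the others, at 0.46 and -0.11, were not called, and without array 2 the adjusted p of the first was 0.152 (0.0810 with plate centring). Ptp4a1, chosen after its values were seen, was at 0.72, 0.81 and 0.52 at 3, 6 and 12 h (adjusted p 0.00109 to 0.0127) and at 0.29 at 18 h (0.0816), a course whose difference between 18 h and 1 h did not pass the test (adjusted p = 0.837).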
